A study of Arabidopsis thaliana with 11 samples.

Results

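The drought response of *BRL3ox* roots was followed by RNA sequencing in 5 of the 11 libraries of the series, 3 from roots kept without water for 5 days and 2 from roots that were watered. The libraries were chosen by their labels, as those of genotype 35S:BRL3, and all genes they count were considered. *BRL3ox* is the *35S:BRL3-GFP* line, in which *BRL3*, a brassinosteroid receptor gene of vascular cells, is driven by the viral 35S promoter and so also in cells that do not normally use it. 1 overexpressing line was studied, and effects of its insertion cannot be told apart from those of the receptor. Plants spent 7 days on agar and 16 days on soil (16 h light and 8 h dark, 22 °C), and the control plants were then watered while the drought plants were not. Roots were taken at 28 days of age and washed before freezing. The drought libraries are replicates 1, 2 and 3, and the control libraries are replicates 1 and 3. No watered replicate 2 of this line was among the 11 libraries. The remaining 6 libraries are Col-0 wild-type (WT) roots, 3 watered and 3 in drought, which were used for the shared estimate of spread and to ask whether a response differed from that of WT. The labels call the replicates biological without saying which plants each one pooled, so that the p-values measure the spread between these libraries.

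Plants that lose water accumulate the hormone abscisic acid (ABA), which binds PYR/PYL receptors, silences clade A protein phosphatases (PP2C) and frees SnRK2 kinases to act on transcription factors that bind ABRE motifs. A second branch runs through DREB factors and the DRE motif, and both switch on dehydrins, other late embryogenesis abundant (LEA) proteins and enzymes that make sugars and proline, which protect cells as water leaves. Brassinosteroids are steroid hormones of growth that are perceived by the receptor kinase BRI1 and its relatives BRL1 and BRL3, and the study asked how extra BRL3 changes the answer of roots to drought.

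Each *BRL3ox* library held 18673457 and 21819318 (control) or 21865710 to 22817390 (drought) counts on genes. Of the 33341 genes listed, 20718 had enough counts to be tested. Levels are given as counts per 1000000 counts on genes after TMM scaling (CPM), for control replicates 1 and 3 and then drought replicates 1, 2 and 3, in that order. A gene was called when its edgeR quasi-likelihood test gave a Benjamini-Hochberg adjusted p under 0.05 over all genes tested and its fold change passed 1.5. Differences are log2 fold changes of drought over control with their standard error (SE). CPM is not corrected for length, so that levels are compared within a gene only. In whole roots, fewer cells of a type and less RNA per cell cannot be told apart.

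The overexpressed gene was checked first. *BRL3* (chromosome 3, 4346330 to 4350939, 2 exons) stood at 974 and 1652 CPM in control and at 2447, 3180 and 2935 CPM in drought, against 44.8 to 70.8 CPM over the 6 WT libraries. All *BRL3ox* libraries therefore carried the transcript far above WT, and the watered libraries carried less of it than the drought libraries. The rise in drought was 1.12 (SE 0.25, adjusted p = 0.0106), and it was lost without control replicate 1 (0.79, adjusted p = 0.108). *BRI1* (chromosome 4, 18324457 to 18328831, 1 exon), which encodes the main brassinosteroid receptor, went the other way. It read 1253 and 497 CPM in control and 103, 95.6 and 104 CPM in drought, whereas the WT libraries lay between 130 and 173 CPM in both conditions. The high values were thus those of both watered *BRL3ox* libraries, which also differed from each other, and the drought values were the lowest of the series. Among 16575 genes that reach 5 CPM in some library, *BRI1* had the largest ratio of the lower watered *BRL3ox* library to the highest of the other 9 libraries (2.87-fold). *BRI1* and *BRL3* share no identical window of 45 bases, the length of the trimmed reads, in their annotated transcripts. The tag and vector parts of the transgene were not checked. *HB17*, a homeobox gene chosen here after its values were seen, read 288 and 433 CPM in control, 587, 638 and 623 CPM in drought and 4.03 to 10.7 CPM in WT. Control replicate 1 was therefore the lowest of the *BRL3ox* libraries for *BRL3* and *HB17* and the highest for *BRI1*. The watered libraries stand apart from the drought libraries of the same label in these genes, and what part this has in the drought response was not tested. Whether they hold RNA of the labelled line alone was not tested either, and every change with drought in *BRL3ox* and every difference from WT given here rests on them.

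**Figure D1:**
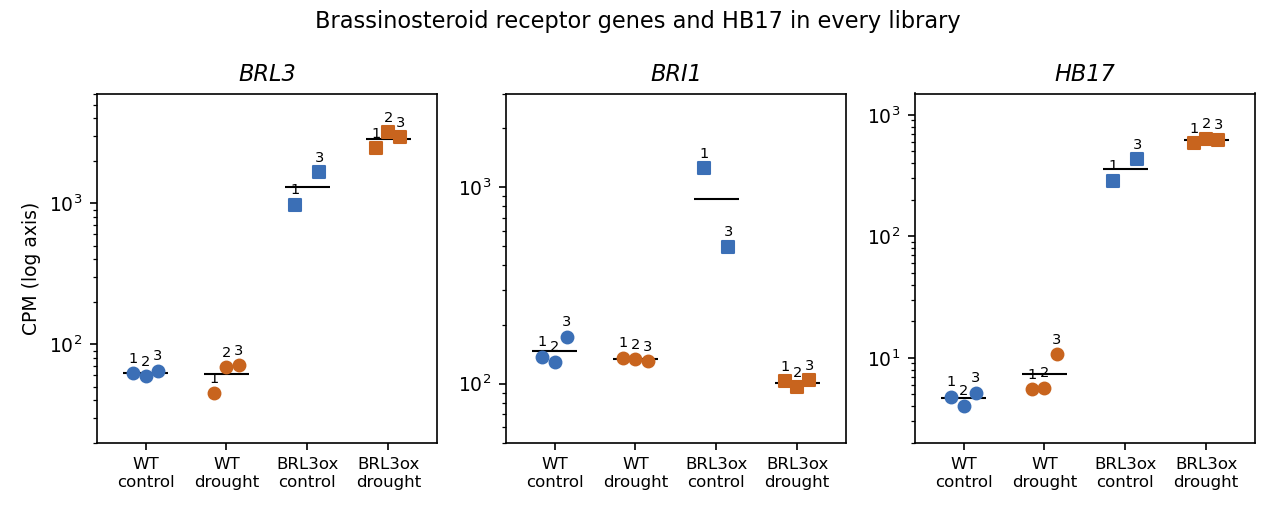
CPM (log axis) of *BRL3*, *BRI1* and *HB17* in each of the 11 libraries, numbered by replicate, with the mean of each group as a line. *BRI1* reached 1253 and 497 CPM in the watered *BRL3ox* libraries and stayed at 173 CPM or less in all others, and *BRL3* was at 974 CPM or more in every *BRL3ox* library.

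Drought changed the roots of *BRL3ox* broadly. 3340 genes were called (16.1% of those tested), 1893 upward (9.14%) and 1447 downward (6.98%). These shares are the background for the counts of every list below. A list with few calls is not read as a result about its family. The median change was 1.18 among upregulated genes and -1.10 among downregulated genes, against -0.02 over all genes tested. 345 genes rose and 209 fell by more than 4-fold. No called gene had overlapping control and drought libraries, but with 2 libraries against 3 this was true of 56.5% of all genes. Upregulated genes took 9.29% and 10.5% of the normalized counts in the control libraries and 21.6 to 23.4% in the drought libraries, whereas downregulated genes went from 5.36% and 5.70% to 2.32 to 2.74%. The counts rested on both control libraries. Without control replicate 1 the calls were 735 up and 732 down, without control replicate 3 they were 975 up and 593 down, and without drought replicate 1 they were 1466 up and 954 down. 1080 genes, 616 up and 464 down, were called in each of the 5 fits that left out 1 *BRL3ox* library, and for each list with a call this number is given as the calls that stayed.

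Among genes that rose most, taken from called genes at 5 CPM or more in either group, were *AT2G37870* and *AT4G33550*, which encode lipid-transfer and seed storage-like proteins. *AT4G33550* went from 11.4 and 10.8 to 493, 366 and 338 CPM, a 36.0-fold rise (5.17, SE 0.26, adjusted p = 1.345e-05, the smallest of the upregulated genes). *AT2G37870* went from 9.44 and 7.09 to 491, 365 and 348 CPM (5.60, SE 0.36, adjusted p = 3.147e-05). Both genes were highest in drought replicate 1, with no overlap between groups. Another gene of this family, *AT3G53980*, was among those that gained most CPM, from 316 and 386 to 1989, 1431 and 1394. *LTP4*, another lipid transfer protein gene, rose from 0.527 and 0.211 to 25.9, 16.4 and 11 CPM. *SWEET14* and *SWEET15*, which encode sugar exporters of the plasma membrane, came from under 0.6 CPM. *SWEET14* reached 55.4, 10.7 and 23.7 CPM (6.11, SE 0.90), so its libraries in drought differed widely. *SWEET15* reached 13.2, 15.2 and 16.2 CPM (5.19, SE 0.89), and these libraries lay close together. The gene of the sulfate transporter SULTR1;3 had 4 counts over the control libraries and 468 over the drought libraries, a ratio of 79.9 with an exact 95% interval from 31 to 295 that covers counting error only. Its drought libraries ranged from 1.34 to 12.3 CPM, and the call was lost without either control library (adjusted p = 0.0944 and 0.0808). *BFT*, a relative of the flowering gene *FT*, had 3 counts in control replicate 1, none in control replicate 3 and 246, 146 and 163 in drought, a ratio of 126 (interval from 43 to 615). A neighboring gene on the other strand overlaps 33.4% of *BFT*. The other members of the 12 largest rises were *GASA3* (5.78), *AT4G01985* (5.66), *BGLU24* (5.20), *AT5G28520* (4.97) and *KIN1* (4.91).

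Genes that fell most, taken from called genes in the same way, were led by *AT1G50050*. *AT1G50050*, which encodes a CAP family protein related to pathogenesis-related proteins, fell from 19.4 and 20.4 to 0.225, 0.923 and 0.281 CPM (-5.37, SE 0.49, adjusted p = 0.0002). *AT1G60110*, a mannose-binding lectin gene of lower level but small p-value, fell from 3.45 and 3.08 to 0.0901, 0.0461 and 0.140 CPM (-5.06, SE 0.35). In both genes every control library stood far above every drought library. The 12 largest falls also held a cupin gene (*AT5G38940*, -4.90), a 2-oxoglutarate oxygenase gene (*AT2G36690*, -4.18), a pectin lyase-like gene (*AT1G05650*, -3.69), a GRAS factor gene (*AT5G19970*, -3.63), a receptor-like kinase gene (*AT1G51830*, -3.73) and *SULTR1;1*, a root sulfate transporter gene (-3.77). *SULTR1;1* fell from 5.65 and 5.78 to 0.315, 0.646 and 0.281 CPM, while *SULTR1;3* rose. *AT5G01740* (-3.68) and *AT2G22122* (-4.07) also fell. Some were highest among drought libraries in replicate 2 by a wide margin. *AT2G22122* read 4.28, 20.5 and 3.55 CPM in drought, *TPX2* (*AT1G65970*, a peroxidase gene) 0.766, 3.18 and 0.421 CPM, *AT4G39675* 4.96, 16.6 and 2.99 CPM and *AT5G33355*, a defensin-like gene, 0.0901, 1.85 and 0.281 CPM. *AT4G39675* lost its call without either control library or drought replicate 1 (adjusted p from 0.0514 to 0.0642). *AT5G33355* lost it without either control library, without drought replicate 1 or 3, and in DESeq2 (adjusted p from 0.0528 to 0.108), and 33.6% of its windows of 45 bases occur in another gene. The same share was 15.6% for *TPX2* (*AT1G65970*) and 8.2% for *AT5G38940*, whose levels are uncertain for this reason. In absolute terms *BRI1* lost most CPM, followed by *GLT1*, an ammonium assimilation gene that went from 1834 and 1786 to 956, 1203 and 1030 CPM (-0.77, SE 0.15). The *GLT1* call was lost without control replicate 1 (adjusted p = 0.0578).

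**Figure D2:**
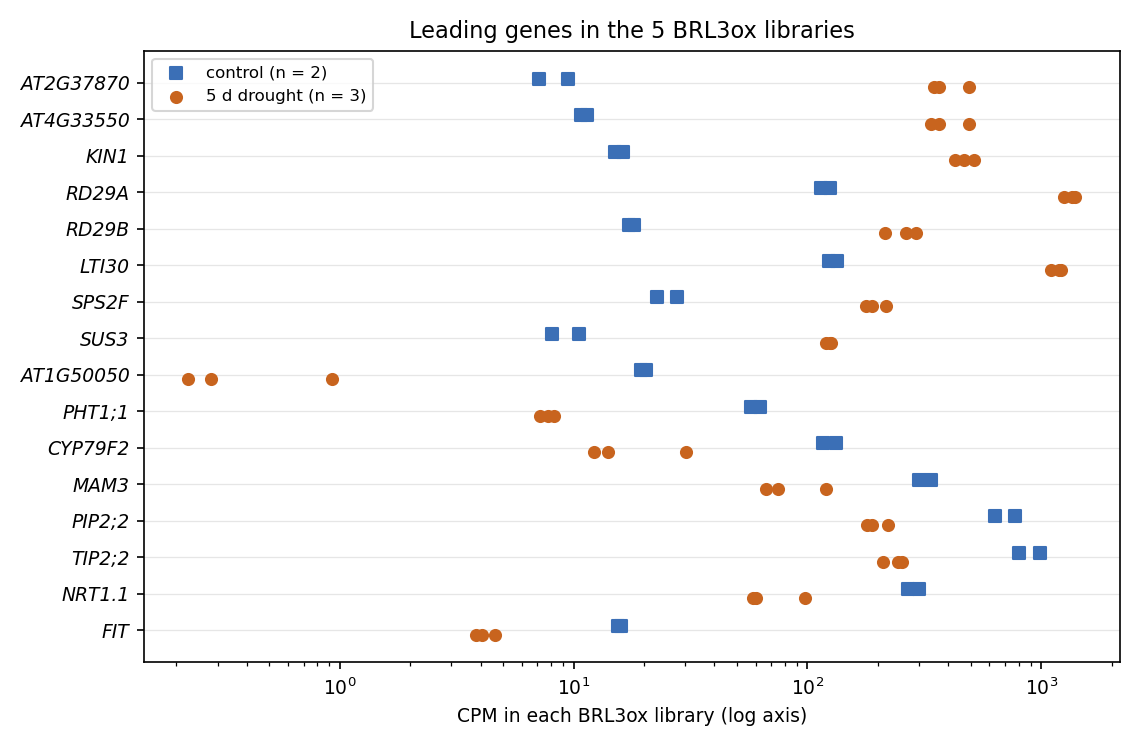
CPM (log axis) of 16 genes in the 2 control (squares) and 3 drought (circles) *BRL3ox* libraries. The upper 8 genes rose and the lower 8 fell, with no overlap between groups. *AT1G50050* went from 19.4 and 20.4 CPM to 0.923 CPM or less.

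The protective proteins of dehydration rose in larger part. Of the tested members of the dehydrin, LEA and RD/KIN/COR lists, 27 rose and none fell. The LEA list had 11 of 16 upregulated with a median of 2.66 (7 calls stayed), RD/KIN/COR 10 of 15 with 1.85 (7 stayed) and dehydrins 6 of 9 with 1.28 (4 stayed). *KIN1*, a cold and ABA-induced gene, went from 16.3 and 15 to 517, 429 and 466 CPM, a 30.1-fold rise (4.91, SE 0.29, adjusted p = 2.2e-05). *RD29A* went from 114 and 125 to 1352, 1400 and 1254 CPM (3.48, SE 0.26, adjusted p = 5.16e-05), and *RD29B* from 18.1 and 17.3 to 214, 290 and 265 CPM (3.86, SE 0.40, adjusted p = 0.000359). These neighboring genes are widely used reporters of dehydration, and in both the libraries of a group lay within a narrow band. *LTI30*, a dehydrin that binds membranes, went from 123 and 134 to 1192, 1210 and 1101 CPM (3.18, SE 0.21). *RAB18*, the ABA-responsive dehydrin, was less even, with 42.0 and 49.96 CPM in control and 326, 866 and 1025 CPM in drought (4.01, SE 0.57). *ECP63*, a LEA gene best known from seeds, went from 0.671 and 1.48 to 19.7, 23.1 and 19.8 CPM (4.25, SE 0.29). *COR47* and *ERD10* were already abundant in watered roots. *COR47* went from 671 and 806 to 2196, 2262 and 2077 CPM and *ERD10* from 839 and 948 to 2168, 2216 and 2121 CPM. *EM1* and *EM6*, LEA genes of dry seeds, were called upward but stayed under 5 CPM in every library.

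Promoters of *RD29B*, *RD29A* and *GOLS2* are shown because their motifs can be set beside their response. Each run gives the 300 bases just before the annotated start, 5′ to 3′ on the strand of the gene, from the RefSeq TAIR10.1 sequence, at chr5:21236721-21237020 (+, *RD29B*), chr5:21240417-21240716 (+, *RD29A*), chr1:21207237-21207536 (+, *GOLS2*). Capitals mark ABRE motifs (ACGTGG or ACGTGT) and DRE motifs (ACCGAC or GCCGAC), each searched on both strands.

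*RD29B*: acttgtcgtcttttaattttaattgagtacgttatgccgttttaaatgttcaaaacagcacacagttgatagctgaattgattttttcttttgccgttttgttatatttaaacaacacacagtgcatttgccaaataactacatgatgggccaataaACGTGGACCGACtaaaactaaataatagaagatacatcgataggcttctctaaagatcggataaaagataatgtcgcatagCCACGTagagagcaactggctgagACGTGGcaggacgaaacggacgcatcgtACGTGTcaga
*RD29A*: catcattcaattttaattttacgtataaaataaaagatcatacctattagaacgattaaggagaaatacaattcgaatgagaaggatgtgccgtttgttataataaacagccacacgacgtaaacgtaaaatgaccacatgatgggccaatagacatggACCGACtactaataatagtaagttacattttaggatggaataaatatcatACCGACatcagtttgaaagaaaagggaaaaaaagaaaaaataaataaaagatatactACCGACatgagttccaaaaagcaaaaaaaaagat
*GOLS2*: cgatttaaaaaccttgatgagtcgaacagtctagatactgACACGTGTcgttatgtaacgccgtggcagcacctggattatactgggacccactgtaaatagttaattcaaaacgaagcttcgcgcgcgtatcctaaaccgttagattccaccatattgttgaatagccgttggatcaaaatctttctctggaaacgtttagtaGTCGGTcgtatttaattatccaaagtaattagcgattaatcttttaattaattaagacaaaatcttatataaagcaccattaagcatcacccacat

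Within the bases shown, *RD29B* held 4 ABRE matches and 1 DRE match, and *GOLS2* 2 overlapping ABRE matches and 1 DRE match. *RD29A* held 3 DRE matches and no ABRE match there. Bases further upstream or after the annotated start were not searched, so *RD29A* is not read as lacking an ABRE. *GOLS2* encodes a galactinol synthase and is described with the sugars. Among the 27 upregulated members of the 3 protective lists, 70.4% had an ABRE and 48.1% a DRE in this window, against 19.2% and 8.96% of the 20674 tested genes with a promoter of this length. Over all upregulated genes the shares were 31.7% for ABRE and 13.8% for DRE, and among those that rose by more than 4-fold the ABRE share was 40.6%. Downregulated genes had 16.4% and 5.18%. The G-box CACGTG, which can share bases with an ABRE, was found in 14% of upregulated, 5.87% of downregulated and 8.08% of all genes. The CGTG element (CGTGTG or CGTGCG), which can overlap ACGTGT, was found in 14.1%, 7.19% and 8.11%. The W-box (TTGACC or TTGACT), read by WRKY factors, was found in 49.8% of genes that fell by more than 4-fold, 35.9% of all downregulated genes, 36.8% of upregulated genes and 32.4% of all genes. A match is a run of letters and not evidence of binding.

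**Figure D3:**
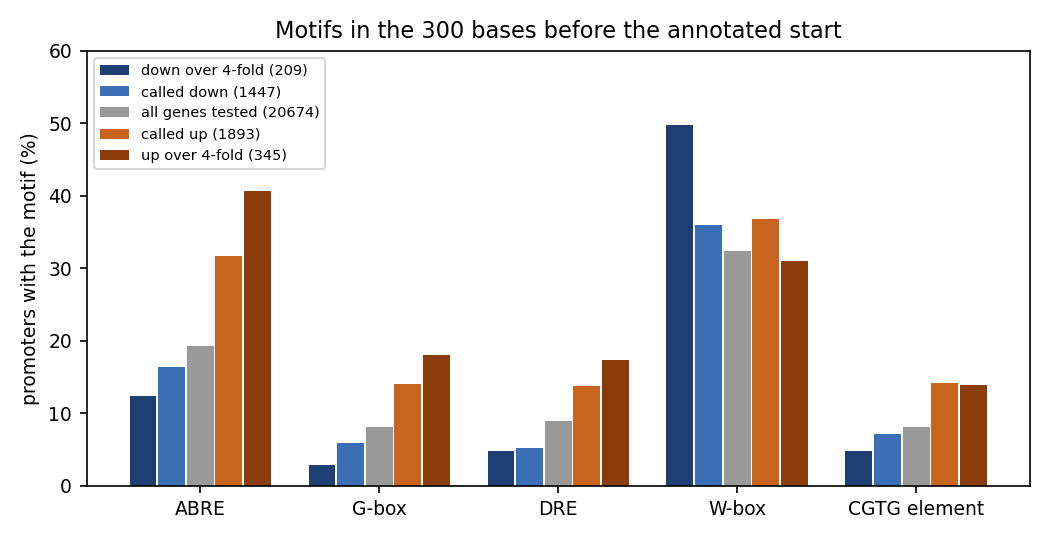
Share of promoters (%) that hold each motif at least once in the 300 bases before the annotated start, for genes in each class of the *BRL3ox* drought response, with the number of promoters in the key. ABRE ran from 12.4% of genes that fell by more than 4-fold to 40.6% of genes that rose by more than 4-fold, and the W-box from 49.8% to 31%.

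In the ABA pathway, genes of breakdown rose and receptor genes moved both ways. All 4 genes of the CYP707A family, whose enzymes break ABA down, rose (median 2.07, 2 calls stayed). *CYP707A1* went from 35.9 and 41.6 to 168, 188 and 207 CPM (2.27, SE 0.31), and *CYP707A3*, the most abundant, from 224 and 267 to 450, 375 and 390 CPM (0.72, SE 0.22). Of 8 tested synthesis genes only *NCED2* was called and stayed (median 0.43), at 0.671 and 0.675 CPM against 5.59, 4.01 and 5.98 CPM (2.94, SE 0.49). *NCED3*, the dioxygenase best known for ABA synthesis in dry leaves, read 31.1 and 32.5 CPM in control and 31.4, 41.3 and 46.1 CPM in drought (0.31, adjusted p = 0.5), so its groups overlapped. Receptor genes split. *PYL4*, *PYL5* and *PYL7* rose (0.94 to 1.35) while *PYR1*, *PYL1*, *PYL8* and *PYL9* fell (-1.36 to -0.62), with 4 of these 7 calls staying. *PYL8* read 67.1 and 67.5 CPM in control and 18.4, 36.7 and 23.4 CPM in drought, and *PYL5* 26.6 and 32.2 against 93.0, 67.3 and 65.1 CPM. Among 9 phosphatase genes *HAI1*, *HAI2* and *HAI3* rose (median 0.64, 2 calls stayed), *HAI3* from 2.35 and 4.18 to 23.0, 41.0 and 31.0 CPM (3.27, SE 0.49). *ABI1* was lower in drought in every library, but its change of -0.49 did not pass the fold threshold. 1 of 10 kinase genes was called, *SNRK2.6* (*OST1*, known from guard cells), which went from 3.79 and 4.39 to 13.6, 12 and 10.2 CPM (1.54, SE 0.17), a call that stayed. Of the bZIP factors that bind ABRE, *ABI5* (2.16) and *ABF2* (0.59) rose among 8 (median 0.05, 1 call stayed).

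Stress regulators moved in both directions. 6 of 12 stress NAC genes were upregulated and none fell (median 0.97, 2 calls stayed). *RD26* went from 13.2 and 17.9 to 44.7, 73.4 and 54.3 CPM (1.88, SE 0.27) and *ANAC019* from 3.16 and 5.06 to 10.8, 15.4 and 14.6 CPM (1.72, SE 0.28). HD-ZIP I genes split (3 up and 2 down of 10, median -0.32, 1 call stayed), with *HB7*, *HB12* and *HB40* up (0.91 to 1.05) and *HB6* and *HB16* down (-0.83 and -1.39). *HB7* and *HB12* are known water-deficit genes. In the CBF/DREB list 4 of 10 rose and 1 fell, and no call stayed in all 5 fits. *DDF1* went from 92.4 and 136 to 297, 393 and 392 CPM, whereas *CBF2*, a cold factor, read 86.2 and 94.7 against 19.3, 55.1 and 29.7 CPM. 4 of 10 tested heat shock genes rose (median 0.88, 3 calls stayed), led by *HSP70* (*AT3G12580*), which went from 16.9 and 14.6 to 191, 153 and 167 CPM (3.44, SE 0.20, adjusted p = 2.2e-05). Of the NADPH oxidase genes, which make signaling reactive oxygen, *RBOHD* rose from 338 and 374 to 1221, 1140 and 1401 CPM (1.82, SE 0.37) and *RBOHF* rose by 0.85, while *RBOHA* and *RBOHB* fell (-0.83 and -1.47). The whole list of oxidative stress genes had 5 up and 4 down of 13 (median 0.25, 2 calls stayed).

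Some genes of compatible sugars and of sucrose handling rose. *SPS2F*, a sucrose phosphate synthase gene, had the smallest p-value after *AT4G33550*, from 27.7 and 22.8 to 218, 189 and 177 CPM (2.95, SE 0.15, adjusted p = 1.345e-05). *SUS3*, a sucrose synthase gene, went from 8.05 and 10.5 to 126, 125 and 120 CPM (3.73, SE 0.34). The sucrose and starch list had 6 upregulated and 1 downregulated of 20 (median 0.28, 4 calls stayed), and sugar transporters 6 up and none down of 13 (median 0.88, 4 calls stayed). *GOLS2*, which begins raffinose synthesis, went from 3.26 and 5.15 to 38.2, 37.2 and 37.9 CPM (3.16, SE 0.22), and *GOLS4* from 31.0 and 37.9 to 279, 186 and 186 CPM (2.65, SE 0.41). *RS4*, a stachyose synthase gene, fell from 12.1 and 10.3 to 1.76, 3.55 and 3.51 CPM. That list had 3 up and 1 down of 12 (median 0.18, 3 calls stayed). Genes of trehalose phosphate moved both ways (4 up and 3 down of 18, median 0.11, 5 calls stayed), with the phosphatase genes *TPPI* (2.58), *TPPF* (2.08) and *TPPG* (1.48) up and *TPPB* (-1.87) and *TPPH* (-1.19) down. For proline, the synthesis gene *P5CS1* rose from 95.4 and 90.8 to 235, 210 and 204 CPM (1.22, SE 0.21), and the breakdown genes *PRODH1* (1.23) and *P5CDH* (0.996) rose with it, 3 of 9 in all (median 0.42, 2 calls stayed). *BAM3*, a starch-degrading amylase gene, rose by 1.96 (SE 0.53).

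Many water channel genes fell. 11 of 21 tested aquaporin genes were downregulated and 1 was upregulated (median -0.82, 7 calls stayed). *PIP2;2*, a plasma membrane channel of roots, went from 637 and 775 to 188, 222 and 181 CPM (-1.84, SE 0.20), although 20.7% of its windows of 45 bases occur in *PIP2;3*, which makes its level uncertain. *TIP2;2*, a vacuolar channel, went from 801 and 986 to 243, 254 and 211 CPM (-1.92, SE 0.21), and *TIP1;2* from 1181 and 1349 to 589, 712 and 559 CPM (-1.03, SE 0.16). Control replicate 3 was above control replicate 1 in all 3 genes, by less than the distance to the drought libraries. *PIP2;5* was the exception, rising from 34.4 and 33.3 to 104, 87.9 and 91.2 CPM (1.48, SE 0.21). *PIP1;3* and *PIP2;7*, as abundant as those that fell, changed by -0.19 and 0.00 with adjusted p-values of 0.37 and 0.99.

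Growth genes moved both ways. Among expansins, which loosen walls, 5 fell and 4 rose of 21 (median -0.65, 5 calls stayed), and those that rose were the expansin-like genes *EXLB1*, *EXLA1*, *EXLA2* and *EXLA3*. *EXLB1* went from 36.1 and 43.3 to 865, 453 and 530 CPM (3.96, SE 0.51), and *EXPA17*, an expansin of lateral root emergence, from 26.1 and 18.8 to 8.34, 5.91 and 8.32 CPM (-1.58, SE 0.23). No mitotic cyclin or B-type kinase gene of 17 was called by edgeR or by DESeq2, with 4 at an unadjusted p under 0.05. Their median was -0.04. Among D cyclins and kinase inhibitors 4 of 11 fell (median -0.23, 2 calls stayed), and all 4 were inhibitors (*KRP2*, *KRP5*, *SIM* and *LGO*, -1.70 to -0.86). *SIM* and *LGO* overlap genes of the other strand over 42.7% and 45.4% of their length.

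Jasmonate genes rose together. 7 of 12 synthesis genes (median 1.85, 4 calls stayed) and 12 of 14 response genes (median 1.41, 6 stayed) were upregulated and none fell. *LOX3* and *LOX4*, 13-lipoxygenases of the first step, went from 47.2 and 69.3 to 364, 340 and 465 CPM (2.74, SE 0.44) and from 125 and 164 to 702, 611 and 913 CPM (2.36, SE 0.41). *OPR3*, a later enzyme, went from 93.9 and 115 to 437, 342 and 476 CPM (2.01, SE 0.33). The JAZ repressors, which are themselves induced by jasmonate, were led by *JAZ10*, from 20.2 and 34.1 to 201, 143 and 207 CPM (2.76, SE 0.33), and *JAZ7*, from 21.7 and 34.2 to 238, 155 and 164 CPM (2.73, SE 0.36). *CYP94B3* and *CYP94C1*, which inactivate the hormone, rose by 2.25 and 2.41. In each of these genes control replicate 1 was below control replicate 3. *MYC2* was at 0 counts in all 5 libraries and was not tested. *AMT1;1* and *MYB29*, from other lists, were also at 0 counts in these libraries. Whether this comes from the counting or from a lack of RNA was not tested, so *MYC2* is not read as absent. Touch and wound genes, which handling of roots can move, rose in the same libraries. Of 14 such markers 4 rose and 1 fell (median 0.57, 1 call stayed), and their summed level was 4606 and 5686 CPM in control and 8703 to 9631 CPM in drought, led by *TCH4* (582 and 712 against 2120, 2019 and 2030 CPM), *CML38* and *WRKY40*. Their part in the jasmonate result was not tested.

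Some brassinosteroid genes fell. 4 of 10 genes of synthesis and inactivation fell and none rose (median -0.38, 1 call stayed). *CYP90D1* went from 9.53 and 6.08 to 0.586, 1.8 and 1.26 CPM (-2.68, SE 0.45), and *BR6OX2*, the last synthesis step, from 4.60 and 4.73 to 1.44, 1.34 and 2.24 CPM (-1.48, SE 0.34). *CPD* and *DWF4*, which are under feedback by the hormone, changed by -0.18 and -0.25 (adjusted p = 0.55 and 0.39). Of 13 tested signaling genes only *BRI1*, *BRL3* and the target *TCH4* were called (median -0.11, 2 calls stayed). The co-receptor gene *BAK1* read 92.1 and 107 CPM in control and 113, 113 and 126 CPM in drought (0.24, adjusted p = 0.33).

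For the other hormones, cytokinin genes were lower. 7 of 18 fell and 1 rose (median -1.03, 1 call stayed). *IPT3* and *IPT5*, which make cytokinin, read 65.1 and 50.3 against 12.1, 27.4 and 19.8 CPM (-1.54, SE 0.31) and 43.5 and 46.0 against 15.6, 25.7 and 21.5 CPM (-1.10, SE 0.19). None of 25 auxin genes rose and 4 fell, namely *YUC9*, *YUC3*, *GH3.5* and the transporter gene *PIN2* (-1.31 to -0.97), and 1 of these calls stayed (median of the list -0.36). In ethylene synthesis (1 up and 2 down of 11, median 0.41, 2 calls stayed) *ACS7* rose (1.60, SE 0.25). Among 10 gibberellin oxidase genes 1 rose and 2 fell (median -0.50, 1 call stayed). *GA3OX1*, an activating enzyme, fell (-2.36, SE 0.45), and *GA2OX6*, an inactivating enzyme, rose from 97.9 and 142 to 267, 349 and 340 CPM (1.41, SE 0.37). Beside these counts, 9.14% of all genes tested were called up and 6.98% down, so the few auxin, ethylene and gibberellin calls are given as single genes.

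Some uptake genes for nutrients fell, while most were not called. *PHT1;1*, a phosphate importer of the root surface, went from 57.4 and 62.6 to 7.75, 8.21 and 7.15 CPM (-2.96, SE 0.20, adjusted p = 3.1e-05), and 44.1% of its windows of 45 bases are shared with another gene, mainly *PHT1;2*. *PHT1;3* had 124 counts over the control libraries and 2 over the drought libraries. The phosphate list had 5 down and 1 up of 15 (median -0.33, 3 calls stayed), and the nitrate and ammonium list 3 down and 1 up of 17 (median -0.20, 3 calls stayed). *NRT1.1*, the nitrate transceptor, went from 269 and 300 to 60.2, 97.9 and 58.7 CPM (-1.98, SE 0.23) and *NIA1*, a nitrate reductase gene, from 793 and 943 to 211, 483 and 211 CPM (-1.52, SE 0.34), a call lost without control replicate 3 (adjusted p = 0.0744). *NRT1.8*, which unloads nitrate from xylem, rose from 6.56 and 13.2 to 51.0, 54.1 and 51.7 CPM (2.4, SE 0.43). *FIT*, the master regulator of iron uptake, fell from 16.0 and 15.5 to 4.06, 3.83 and 4.63 CPM (-1.91, SE 0.19), and 4 of 15 iron genes fell and 1 rose in all (median -0.61, 2 calls stayed). *SKOR*, which loads potassium into xylem, fell from 73.3 and 71.9 to 8.65, 25.2 and 8.88 CPM (-2.35, SE 0.48), while the outward channel gene *GORK* rose from 43.6 and 39.5 to 114, 100 and 91.4 CPM (1.29, SE 0.17). The potassium and sodium list had 3 up and 1 down of 9 (median 0.17, 2 calls stayed). In *NIA1*, *NRT1.1* and *SKOR* drought replicate 2 was the highest drought library. Genes listed as markers of root tissue, to check the label, fell at the same time. Their part in these falls was not tested. 8 of 13 fell and 1, *SUC2*, rose (median -0.84, 3 calls stayed), with *GL2*, *SHR* and *SCR* among those that fell. All 13 passed the filter on low counts, with a summed level of 3713 and 3636 CPM in control and 3262 to 4249 CPM in drought.

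The barriers of the endodermis moved in opposite directions. Suberin genes rose, 11 of 18 with 1 down (median 0.78), and Casparian strip genes fell, 5 of 9 with none up (median -0.78). *MYB41*, a suberin regulator, went from 2.3 and 2.45 to 10.6, 7.98 and 10.1 CPM (2.003, SE 0.40), and *GPAT5*, a suberin enzyme, from 24.3 and 26.0 to 64.0, 45.6 and 47.5 CPM (1.06, SE 0.24). *CASP1*, which scaffolds the strip, went from 60.1 and 60.7 to 33.6, 25.1 and 40.1 CPM (-0.88, SE 0.23). None of these calls stayed in all 5 fits, and both changes were modest in size. Xylem and secondary wall genes were not called (0 of 14 by edgeR, 1 by DESeq2, 4 at an unadjusted p under 0.05), and their median was 0.22. Root hair genes had 2 up and 1 down of 14 (median -0.31), and none of these calls stayed.

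Some glucosinolate genes fell. 9 of 20 fell and 1 rose (median -0.71), and 9 of these 10 calls stayed. Those that fell belong to the methionine-derived branch. *MYB28*, its regulator, went from 54.7 and 58.1 to 20.3, 18.8 and 19.1 CPM (-1.54, SE 0.12), *MAM3* from 300 and 336 to 74.5, 66.4 and 120 CPM (-1.87, SE 0.20) and *CYP79F2* from 116 and 133 to 12.2, 14 and 30.2 CPM (-2.72, SE 0.30). *SOT18*, the sulfotransferase of the last step, had the smallest p-value of the downregulated genes, from 117 and 118 to 38.3, 40.6 and 38 CPM (-1.59, SE 0.08, adjusted p = 1.345e-05). Drought replicate 3 was the highest drought library for *MAM3* and *CYP79F2*. *SOT16*, a sulfotransferase of the tryptophan-derived branch, rose from 259 and 244 to 474, 415 and 465 CPM (0.84, SE 0.19). Flavonoid genes were low and uneven, and none of 8 was called by edgeR or DESeq2 (1 at an unadjusted p under 0.05). Their median of 1.07 therefore rests on uncalled genes. Of 14 phenylpropanoid and lignin genes 2 rose, among them *CAD5* (0.80), and *FAH1*, a step toward syringyl lignin, fell (-0.78), and 1 of these calls stayed (median of the list 0.32). Of 7 root triterpene genes 1 rose and 1 fell (median 0.48), and neither call stayed.

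**Figure D4:**
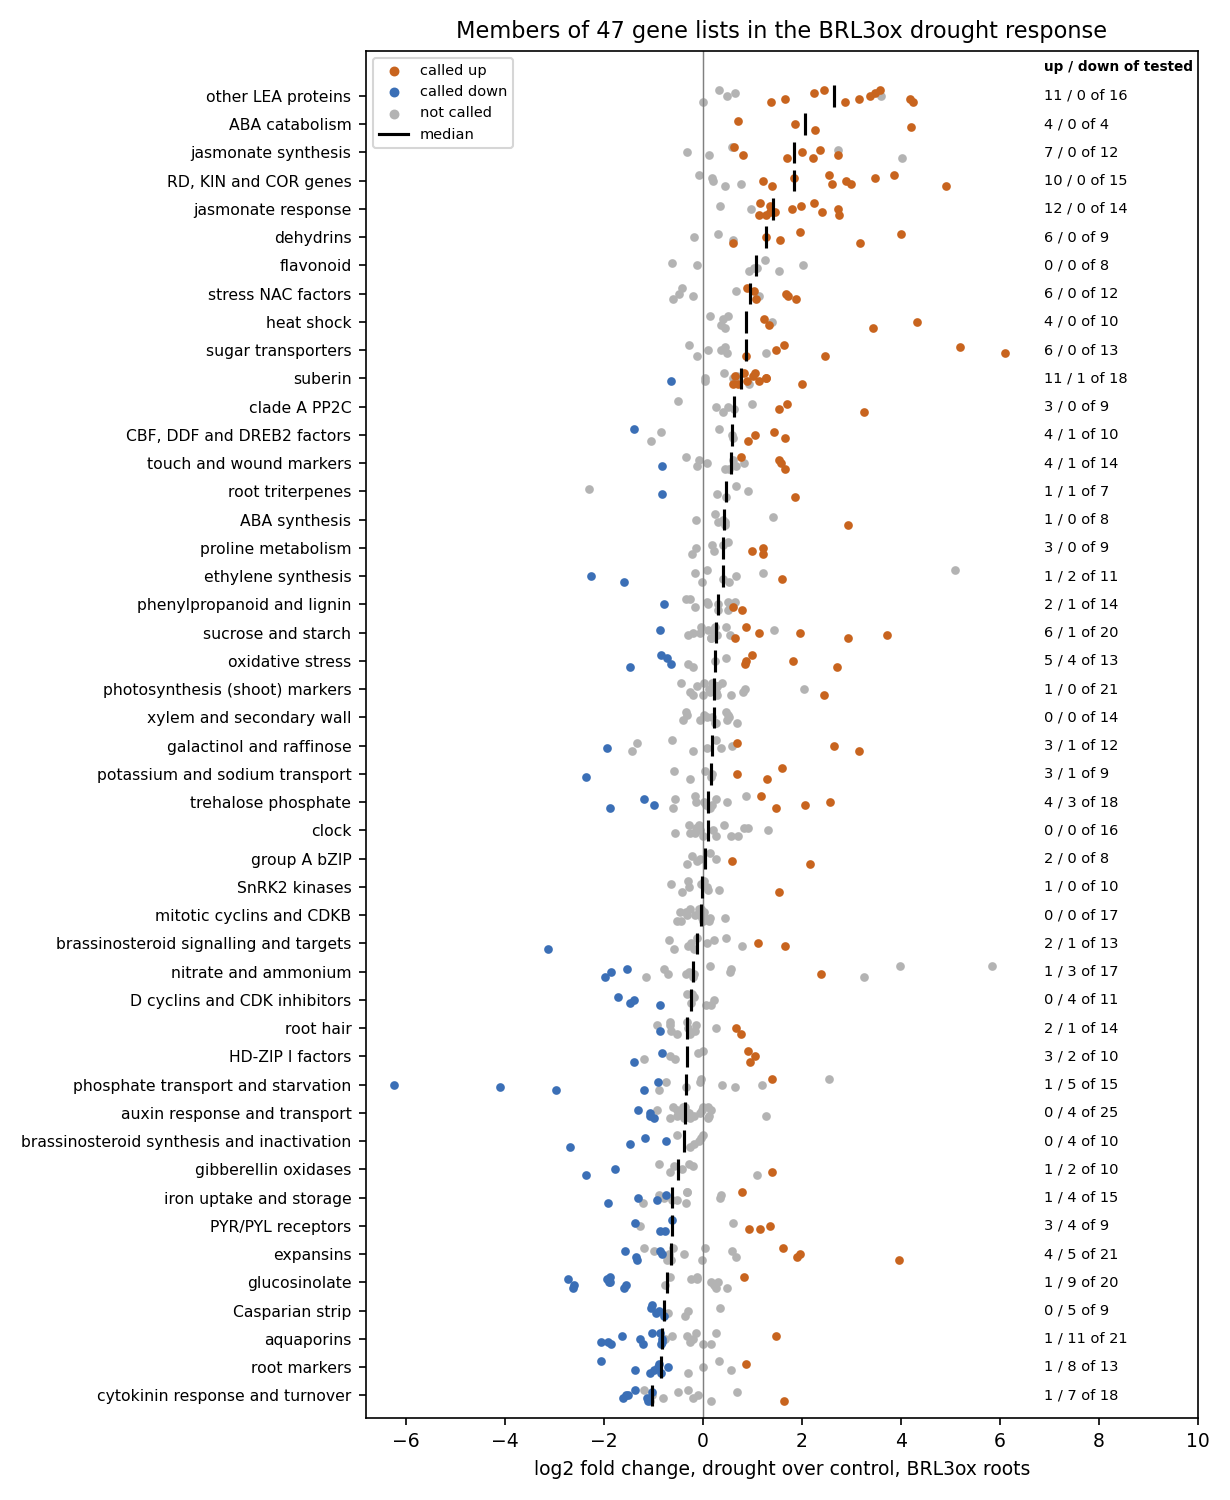
Log2 fold change of drought over control for every tested member of the 47 gene lists, ordered by the median of the list (black bar). Members called up or down are colored, the rest are gray, and the numbers at the right give the calls. LEA genes had the highest median (2.66) and cytokinin genes the lowest (-1.03).

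Signs of shoot tissue and of harvest time were also read. Photosynthesis genes were low, at a summed level of 227 and 62.6 CPM in control and 138, 188 and 163 CPM in drought, and 1 of 21 was called, a call that did not stay. Their median of 0.23 became -0.53 without control replicate 3 and 2.24 without control replicate 1, so the control libraries differed in these genes. Of 16 clock genes none was called by edgeR and 3 by DESeq2, with 6 at an unadjusted p under 0.05. Their median was 0.11. The part of either in the other results was not tested.

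Finally, the *BRL3ox* response was set beside that of WT. The WT change of the 1893 upregulated genes had a median of 0.74 and was positive for 1843 of them, and that of the 1447 downregulated genes had a median of -0.65 and was negative for 1345. These genes were chosen in *BRL3ox*, which by itself favors larger values there. Genes were then chosen in WT instead. The median changes were 1.05 in WT and 1.03 in *BRL3ox* for 1563 upregulated genes and -1.13 and -1.02 for 1002 downregulated genes. That choice favors larger values in WT in the same way, so neither set shows whether the responses are equal in size. The difference of the responses was tested in the same edgeR fit. At an unadjusted p under 0.0025, 197 genes differed (0.951% of those tested), 114 of them called in *BRL3ox*, and 2 held at an adjusted p under 0.05. DESeq2 gave 435 genes at the unadjusted threshold and 214 at an adjusted p under 0.05. Of 1702 genes called in *BRL3ox* and not in WT, 84 differed by this test. Of the 114, 46 rose and 65 fell more in *BRL3ox* than in WT. Both watered *BRL3ox* libraries enter every one of these differences, and without control replicate 1 or 3 the number of genes that differed was 95 or 61.

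Among genes called in *BRL3ox*, 2 of the 8 differences with the smallest p-values were upward. *AAP3* (chromosome 1, 29074879 to 29077390), an amino acid permease gene, went from 6.71 and 5.65 to 33.0, 27.4 and 27.9 CPM in *BRL3ox* (2.25, SE 0.15), and from 14.4, 14.9 and 11.7 to 19.0, 21.2 and 19.4 CPM in WT. The *BRL3ox* libraries were therefore below all WT libraries when watered and above them in drought. The responses differed by 1.71 (SE 0.19, adjusted p = 0.0284). *GOLS2* rose by 3.16 in *BRL3ox* and by 1.11 in WT, where it read 4.36, 5.62 and 6.37 CPM in control and 12.5, 9.92 and 12.9 CPM in drought. The watered libraries overlapped between genotypes and the drought libraries did not (difference 2.05, SE 0.27, adjusted p = 0.0631). *YUC9* (chromosome 1, 1104493 to 1106241), an auxin synthesis gene, fell in *BRL3ox* from 18.1 and 17.2 to 8.29, 9.23 and 9.4 CPM and rose in WT from 8.93, 6.60 and 7.13 to 12.8, 12.3 and 11.7 CPM. The response was thus opposite in sign, by -1.68 (SE 0.18, adjusted p = 0.0284). *AT1G14960*, a polyketide cyclase-like gene, was also opposite, from 15.6 and 17.9 to 8.02, 6.14 and 9.54 CPM in *BRL3ox* and from 15.2, 7.75 and 11.2 to 49.7, 25.9 and 30.1 CPM in WT (difference -2.72, SE 0.43, adjusted p = 0.124). Its fall in *BRL3ox* alone was lost when any library but drought replicate 3 was left out (adjusted p from 0.0863 to 0.165). *CCR1* (*AT4G39260*), a glycine-rich RNA-binding protein gene, read 696 and 726 against 378, 424 and 449 CPM in *BRL3ox*, while WT libraries lay between 578 and 744 CPM (difference -0.98, SE 0.15, adjusted p = 0.088). *RAX2*, a MYB factor gene, read 21.8 and 22.2 against 15.1, 13.4 and 11.8 CPM in *BRL3ox* and 13.1 to 18.6 CPM in WT (difference -0.98, SE 0.17, adjusted p = 0.17). *SOT18* fell in both genotypes, by 1.59 in *BRL3ox* and by 0.72 in WT (difference -0.87, SE 0.11, adjusted p = 0.0631). WT read 66.8 to 78.1 CPM in control and 43.2 to 45.5 CPM in drought. *BRL3ox* was above WT when watered (0.68, adjusted p = 0.0236) and close to it in drought (-0.19, adjusted p = 0.163). The difference thus lies mainly in the watered libraries. *BRI1* completes the set (difference -2.98, SE 0.39, adjusted p = 0.0631), and its WT libraries did not change with drought by more than their spread (-0.14). For *BRI1* too, *BRL3ox* was above WT when watered (2.58, adjusted p = 0.0158), while in drought the change was -0.40 (adjusted p = 0.39). Other genes named here passed the unadjusted threshold only. They included *KIN1*, *LTI30*, *ECP63*, *EM1*, *RD26*, *LOX3* and *HSP70*, with a larger rise in *BRL3ox*, and *PHT1;1*, *SULTR1;1*, *MYB28* and *RBOHB*, with a larger fall. None of them held at an adjusted p under 0.05, with 0.223 for *KIN1* and *SULTR1;1* and 0.217 for *HSP70* and *PHT1;1*. *PYR1* fell in *BRL3ox* (-0.62) and changed by 0.31 in WT.

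**Figure D5:**
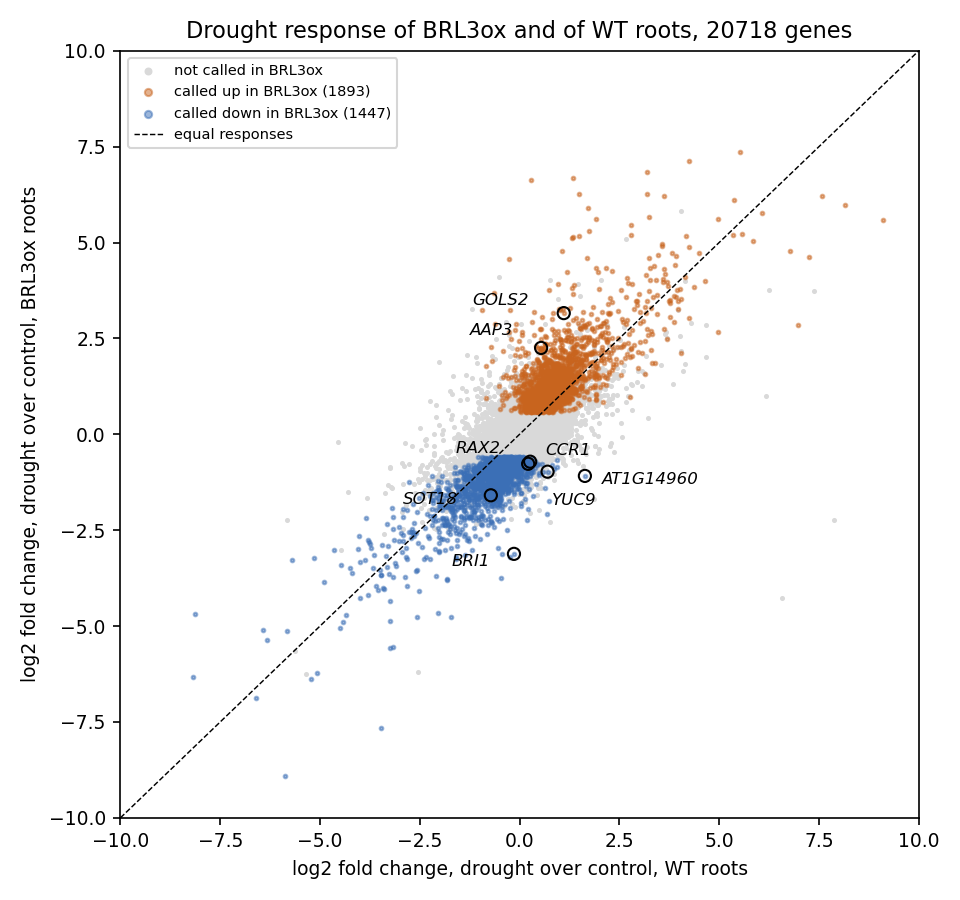
Log2 fold change of drought over control in *BRL3ox* roots against that in WT roots for the 20718 genes tested, with calls in *BRL3ox* colored and the line of equal responses dashed. Circles mark the 8 genes with the smallest p-values of the difference from WT among genes called in *BRL3ox*. *YUC9* and *AT1G14960* lie below 0 on the *BRL3ox* axis and above 0 on the WT axis.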

How the data were processed

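The files held whole-number read counts per gene, which the authors made and deposited 1 file per library (poly(A) RNA, TruSeq stranded kit, single-end reads trimmed to 45 bases). Per the labels, reads were checked with FastQC, mapped to TAIR10 with HISAT2 2.1.0 and counted with HTSeq 0.9.1. The strand setting of the counting is not given in the sources used here, so counts of genes that overlap on the other strand are uncertain. Reads in such overlaps may have been set aside as ambiguous. The 5 summary classes of HTSeq (10.5 to 12.9% of each file) were left out. From the counts, edgeR 4.0.16 (R 4.3.3) fitted 1 quasi-likelihood model over the 4 groups of genotype and condition (11 libraries, TMM scaling, filterByExpr, 7 residual degrees of freedom, biological coefficient of variation 0.159), and BRL3ox drought was compared with BRL3ox control. The 1.5-fold threshold is that of the study's Results. Every p-value is 2-sided and from this fit, unless a left-out library or DESeq2 is named. An adjusted p is a Benjamini-Hochberg FDR over the genes tested in its fit, 20718 in the main fit. Alternatives were RLE scaling, DESeq2 1.42.0, other filters, only the 5 BRL3ox libraries, a replicate block, a 2-fold threshold and leaving out each BRL3ox library. In pairs of replicate libraries the counts differed more than sampling noise (chi-square per degree of freedom 8.28 for the BRL3ox controls and 13.1 to 17.8 for drought).

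Genes were named by rule: BRL3, the 12 largest rises and 12 largest falls among called genes with no overlap and at least 5 CPM, the 5 smallest p-values in each direction, the 6 genes that gained and the 6 that lost most CPM, and the list members. The rule also took the 8 smallest p-values of the difference from WT among genes called in BRL3ox. The 47 lists, the rule and the comparison were chosen with earlier results of these data known. Of 33341 gene identifiers, 33056 matched the RefSeq TAIR10.1 annotation, whose nuclear chromosomes are those of TAIR10 and which gave symbols, coordinates and promoters. Of 645 genes named or listed, 557 shared no window of 45 bases with a transcript of another gene. Counts limit the precision of low genes, and intervals cover counting error only.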

Additional observations from a re-analysis of the deposited data

Results flagged for a closer look

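Among genes called in BRL3ox, 8 were taken whose drought responses differed from WT with the smallest p-values, by the interaction term of the edgeR fit. The response of BRL3ox minus that of WT was -1.68 for *YUC9*, 1.71 for *AAP3*, -2.98 for *BRI1*, -0.87 for *SOT18*, 2.05 for *GOLS2*, -0.98 for *CCR1* (*AT4G39260*), -2.72 for *AT1G14960* and -0.98 for *RAX2* on the log2 scale. *YUC9* and *AAP3* had an adjusted p of 0.0284, and the other 6 had values from 0.0631 to 0.17. All 8 stayed past the unadjusted threshold of 0.0025 under each of the 10 alternatives for this comparison. Over these the difference ranged from -1.71 to -1.62 for *YUC9*, from 1.60 to 1.84 for *AAP3*, from -3.49 to -2.16 for *BRI1* and from 1.77 to 2.43 for *GOLS2*. The 8 were chosen by small p-values in these data, and the alternatives refit the same libraries. Staying past a looser threshold therefore shows little dependence on processing and adds no independent support. Each of the 8 differences rests on both watered BRL3ox libraries, which no alternative removes together. For *BRI1* these libraries read 1253 and 497 CPM.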

How the results depend on the processing

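The 3340 calls of the BRL3ox drought response became 2024 at a 2-fold threshold (1185 up, 839 down). Leaving out 1 BRL3ox library gave 1467 to 3097 calls in all, 735 to 1811 up and 593 to 1286 down, and 61 to 181 genes whose response differed from that of WT (197 with all libraries). The lowest values came without a control library, which leaves 1 library in that group, assumed to vary like the others. DESeq2 gave 435 genes whose response differed, 214 of them at an adjusted p under 0.05. No called gene changed sign under any alternative. With RLE scaling, no filter, a minimum of 10 counts in every sample, DESeq2 or only the BRL3ox libraries, the counts of calls stayed within 1.5 times. Of 583 values for the 50 genes named by size, p-value or difference, 562 kept their call and 21 lost it, 16 of these on leaving out 1 library. The median of the photosynthesis genes (0.23) became -0.53 without control replicate 3 and 2.24 without control replicate 1. Same-numbered libraries had correlations of their deviations from group means of -0.088 to 0.412 (mean 0.15), over 0.1 in 11 of 15 pairs but at 0.017 and 0.085 in the BRL3ox pairs. Differently numbered pairs ran from -0.412 to 0.376. The 2 BRL3ox control libraries deviate from their mean by equal and opposite amounts, so their pairs are not independent. The numbers were not used as a pairing, since the labels name no shared batch and not every pair passed 0.1, a limit set here. Whether same-numbered libraries share an effect was not tested. With a replicate block the calls were 3807 (2138 up, 1669 down), and 266 genes differed from WT.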

Other observations

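Some gene families outside the lists were counted by their annotated product, a choice made after values were seen, and only part of them are given. Over all genes tested, 9.14% were called up and 6.98% down. Of 156 tested leucine-rich repeat receptor kinase genes, 42 fell and 7 rose in BRL3ox roots in drought (median -0.30, with -0.21 in WT). Of 58 peroxidase genes, 18 fell and 6 rose (median -0.56, with -0.25 in WT). Lipid-transfer protein genes moved both ways, with 19 up and 11 down of 55 and changes from -3.02 to 5.60. Of 311 ribosomal protein genes, 2 rose and 2 fell, and their median was -0.17 against -0.02 over all genes tested. Responses differed from WT at an unadjusted p under 0.0025 for 2 of the receptor kinase genes and for none of the peroxidase, lipid-transfer or ribosomal protein genes.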
